A study of Mus musculus with 6 samples.

Results

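The contractile machinery of smooth muscle was examined as a set of COUP-TFII binding sites at 10 mouse genes: Srf, Myocd, Des, Cald1, Cnn1, Tagln, Tpm1, Tpm2, Acta2 and Myh11. A peak belonged to a gene when its centre lay nearer to that gene's body than to any other protein-coding gene, within 100 kb. By this rule 6 of the 11175 peaks called in XX mesonephroi and 5 of the 9846 called in XY mesonephroi belonged to the 10 genes. Of these, 4 were at the same places in both sexes. The study carried out chromatin immunoprecipitation with sequencing (ChIP-seq) for COUP-TFII, the nuclear receptor encoded by Nr2f2, with a rabbit antibody. Chromatin came from pooled mesonephroi of CD-1 embryos at E14.5. The groups used are XX mesonephroi (2 replicates) and XY mesonephroi (2 replicates), without treatment or genetic change in the labels, and 2 samples of pooled input were not used. The mesonephros, which lies beside the fetal gonad and holds the Wolffian and Müllerian ducts with their mesenchyme, is a mixture of cell types, so a peak cannot be placed in smooth muscle precursors or in any other cell.

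Smooth muscle differentiation turns on a common set of genes for actin, myosin and the proteins that regulate them. Serum response factor (SRF) binds CArG boxes in many of these genes, and myocardin is its coactivator in smooth muscle. In the urogenital tract, smooth muscle forms later from mesenchyme that surrounds the ducts. COUP-TFII is abundant in such mesenchyme.

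Each sex is represented by 1 list of peaks over its 2 replicates. The lists hold positions on mm10 alone, without a measure of height or confidence, and every peak is 300 bp wide. There is therefore no spread between replicates, no sequencing depth and no test between the sexes, and a peak that is missing from a list may have been absent or below the threshold of the peak calling. Intervals given below are exact 95% binomial intervals and cover counting error only. The tissue label could not be compared with marker genes, since no expression data were used.

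Peaks were found at 6 of the 10 genes, and at 4 of them in both sexes. The XX list had a peak at 5 of the 10 genes, against 36.9% of all 21887 protein-coding genes. The XY list also had a peak at 5 of the 10, against 35.0%. A shared peak, with at least 1 bp in common between an XX and an XY peak, was found at 4 of the 10 (Srf, Myocd, Des and Cald1), against 28.2%. At these background shares, 3.69, 3.50 and 2.82 of 10 genes would have an XX, an XY and a shared peak, so these counts do not set the 10 genes apart. XX-only peaks were found at 2 of the 10 (Cald1 and Tpm2), against 13.2% of all genes, and an XY-only peak at 1 of the 10 (Tpm1), against 9.55%. Acta2, Myh11, Tagln and Cnn1 had no peak in either list, as had 57.8% of all protein-coding genes. None of the 10 genes had more than 1 shared peak.

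**Figure D1:**
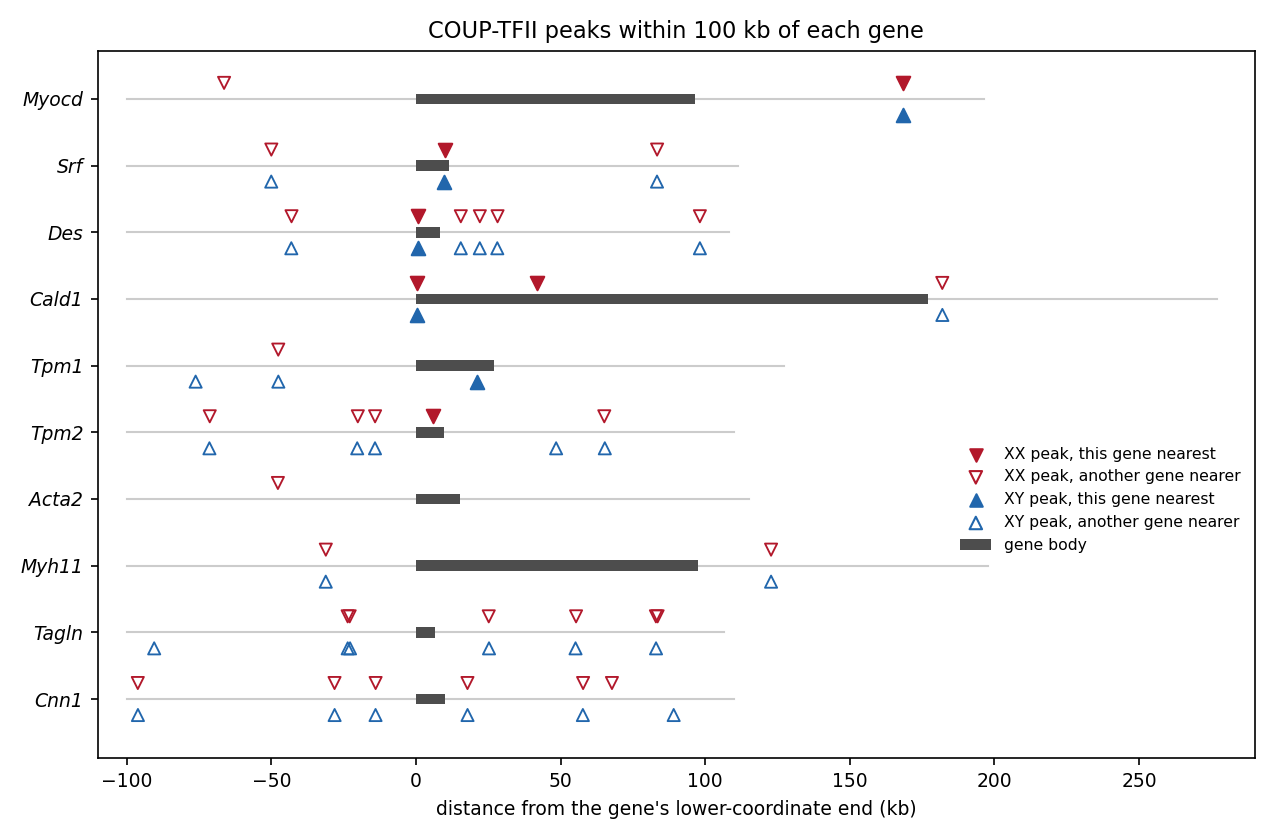
Peaks within 100 kb of each of the 10 genes, drawn to scale from the gene's lower-coordinate end (kb). Triangles above the line are XX peaks and those below are XY peaks, filled where the gene is the nearest protein-coding gene and open where another gene is nearer. Filled symbols in both lists appear at Myocd, Srf, Des and Cald1, and none at Acta2, Myh11, Tagln and Cnn1.

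The promoters of 5 genes are shown first because 3 of them (Srf, Des and Cald1) have a shared peak beside the start, while Acta2 and Cnn1, markers of smooth muscle, have none. They come from the RefSeq promoter table for GRCm38.p6, the assembly of mm10, in which 7 of the 10 genes had at least 1 listed start. Each line gives the 250 bases before the listed transcription start, 5′ to 3′ on the gene's strand. Capitals mark matches to GGGCGG (the GC box bound by Sp1), CATTCC (the MCAT element bound by TEAD factors) and the CArG box (CC, 6 bases that are A or T, then GG), searched on both strands.
Srf (chr17:46556163-46556412, minus strand): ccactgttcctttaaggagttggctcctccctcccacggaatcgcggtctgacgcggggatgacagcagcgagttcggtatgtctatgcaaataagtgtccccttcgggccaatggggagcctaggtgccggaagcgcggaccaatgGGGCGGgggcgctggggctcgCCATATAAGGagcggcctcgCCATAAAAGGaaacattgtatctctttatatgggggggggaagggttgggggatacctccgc
Des (chr1:75360042-75360291, plus strand): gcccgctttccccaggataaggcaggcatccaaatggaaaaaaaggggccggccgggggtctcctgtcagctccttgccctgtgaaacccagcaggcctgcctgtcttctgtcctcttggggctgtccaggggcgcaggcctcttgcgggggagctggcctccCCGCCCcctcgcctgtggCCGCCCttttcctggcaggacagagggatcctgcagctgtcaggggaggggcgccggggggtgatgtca
Cald1 (chr6:34598254-34598503, plus strand): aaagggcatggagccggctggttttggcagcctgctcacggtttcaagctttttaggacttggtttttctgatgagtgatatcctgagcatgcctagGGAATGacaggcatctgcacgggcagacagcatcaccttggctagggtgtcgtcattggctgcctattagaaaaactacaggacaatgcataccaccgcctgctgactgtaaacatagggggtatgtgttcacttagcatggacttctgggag
Acta2 (chr19:34255374-34255623, minus strand): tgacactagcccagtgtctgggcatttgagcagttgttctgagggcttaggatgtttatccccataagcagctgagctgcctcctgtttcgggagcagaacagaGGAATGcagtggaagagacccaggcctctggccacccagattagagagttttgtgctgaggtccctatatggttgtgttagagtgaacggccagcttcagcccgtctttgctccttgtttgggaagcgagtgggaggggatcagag
Cnn1 (chr9:22099003-22099252, plus strand): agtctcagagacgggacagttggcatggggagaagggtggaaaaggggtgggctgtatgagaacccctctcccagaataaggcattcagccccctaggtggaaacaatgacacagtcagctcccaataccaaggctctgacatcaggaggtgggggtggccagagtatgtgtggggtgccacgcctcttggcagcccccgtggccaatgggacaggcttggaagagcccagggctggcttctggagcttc

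The Srf promoter carried 2 CArG boxes, CCATATAAGG at 82 to 73 and CCATAAAAGG at 62 to 53 bases upstream of the start. Srf was the only one of the 7 genes with a CArG box in its 300-base window (250 bases before to 50 after the start), against 1.63% of all 32851 windows in the table. With 1 mismatch allowed, a search added after the data were seen, Acta2, Cald1 and Tpm1 also held one. The Acta2 matches were CCCTATATGG at 84 to 75 and CCTTGTTTGG at 34 to 25 bases upstream, and 21.1% of all windows held such a match. GGGCGG was found at Srf, Des, Cald1, Tpm1 and Tpm2 (35.7% of all windows), with 2 copies upstream of the start of Des. CATTCC was found at Acta2, Cald1 and Tpm1 (14.7% of all windows). AGGTCA, the half-site of nuclear receptors such as COUP-TFII, was in none of the 8 windows of these 7 genes, against 16.3% of all windows. Neither was GGGTCA (13.7%), nor a pair of AGGTCA in the same direction with 1 base between and up to 1 mismatch in each (2.40%). These windows do not reach the peaks: the nearest peak began 92 bp from the window at Srf, 162 bp at Cald1 and 340 bp at Des. The search therefore says nothing of the letters under the peaks, whose sequences were not analysed here.

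Srf (gene 20807, chromosome 17, 46546838 to 46558267, minus strand) encodes the factor that binds CArG boxes. Its XX peak lay at 46556551 to 46556850 and its XY peak at 46556504 to 46556803, with centres 47 bp apart and 253 bp in common. The centres lay 538 bp (XX) and 491 bp (XY) upstream of the listed start. Because the annotated gene body extends past this start, both peaks were also inside the gene, 1.57 kb and 1.61 kb from its outer end. The 2 CArG boxes printed above thus lay between the Srf peaks and the start.

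Myocd (gene 214384, chromosome 11, 65173608 to 65269989) encodes myocardin. Its peak was far from the gene. The XX peak at 65341779 to 65342078 and the XY peak at 65341756 to 65342055 both lay 71.9 kb beyond the gene's higher-coordinate end, with centres 23 bp apart. The next protein-coding genes were much farther away, Arhgap44 at 179 kb on the side of Myocd and Map2k4 at 346 kb on the other. Among genes of any kind, the long noncoding RNA genes Gm30586 (53.3 kb) and Gm12295 (54.1 kb) were nearer to the peak than Myocd. No start was listed for Myocd, so the peak is not called upstream or downstream.

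Des (gene 13346, chromosome 1, 75360292 to 75368579, plus strand) encodes desmin, the intermediate filament protein of muscle cells. The XX peak at 75360695 to 75360994 and the XY peak at 75360681 to 75360980 had centres 14 bp apart, the closest match among the 4 shared sites, and 286 bp in common. They lay inside the gene, 552 bp (XX) and 538 bp (XY) downstream of the start. Desmin's neighbour Speg, which encodes a muscle kinase related to myosin light chain kinase, had 3 shared peaks in the next stretch of chromosome, 7.21, 13.8 and 19.9 kb beyond the end of Des in the XX list. The first of them lay 493 bp and the next 258 bp from a listed start of Speg. With Dnpep and Asic4 on either side, 6 shared peaks lay within 100 kb of Des, a number reached by 2.42% of protein-coding genes, whose median was 1.

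Cald1 (gene 109624, chromosome 6, 34598495 to 34775469, plus strand) encodes caldesmon, which restrains the actomyosin ATPase. Its shared peak lay at 34598715 to 34599014 in the XX list and at 34598764 to 34599063 in the XY list. The centres were 360 bp (XX) and 409 bp (XY) downstream of the first of 2 listed starts and 49 bp apart. A second Cald1 peak, at 34640243 to 34640542, was in the XX list only. It lay inside the gene, 41.9 kb downstream of the first start, and the nearest XY peak was 41.5 kb away. No peak lay at the second start, at 34709444. An additional shared peak 4.99 kb beyond the end of Cald1 was within 27 bp of the start of the neighbouring gene Agbl3 and was given to that gene.

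Cnn1 (gene 12797, chromosome 9, 22099221 to 22109221), which encodes calponin, and Tagln (gene 21345, chromosome 9, 45929628 to 45936058), which encodes transgelin (SM22-alpha), had no peak of their own. Both stand among neighbours with many peaks. Within 100 kb of Tagln there were 6 XX and 6 XY peaks, of which 5 were shared, and the same counts were found around Cnn1. At least as many shared peaks lay within 100 kb of 5.54% of protein-coding genes. These genes and Des had the highest counts of the 10. By the same measure Tpm2 had 4 shared peaks (12.4% of genes had at least as many) and Srf 3 (24.7%). Myh11 and Cald1 had 2 each (43.2%), Myocd and Tpm1 had 1 each (66.6%), and Acta2 had none. The nearest XX peak to Cnn1 lay 7.80 kb away, 175 bp from the start of Elof1, a transcription elongation factor gene. The nearest to Tagln lay 18.7 kb away inside Sidt2, 464 bp from its start. Tagln had the shortest territory of the 10 genes, the stretch of genome nearer to it than to any other protein-coding gene, with 6.50 kb against a median of 45.0 kb over all such genes.

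The tropomyosin genes, whose products lie along actin filaments, each had a peak in 1 list only. Tpm1 (gene 22003, chromosome 9, 67022590 to 67049672, minus strand) had an XY-only peak at 67043587 to 67043886, inside the gene and 5.48 kb downstream of the listed start. The nearest XX peak was 68.8 kb away. Tpm2 (gene 22004, chromosome 4, 43513726 to 43523583, minus strand) had an XX-only peak at 43519444 to 43519743, inside the gene and 3.96 kb downstream of the start. The nearest XY peak was 20037 bp away. Neither tropomyosin gene had a peak within 1 kb of a listed start.

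Acta2 and Myh11 had no peak of their own. Acta2 (gene 11475, chromosome 19, 34240336 to 34255585, minus strand) encodes smooth muscle alpha-actin. Within 100 kb of it the XX list had 1 peak, at Stambpl1, 47.7 kb away and 341 bp from the start of that gene, and the XY list had none. Myh11 (gene 17880, chromosome 16, 14194527 to 14292188) encodes smooth muscle myosin heavy chain. The 2 XX and 2 XY peaks within 100 kb of Myh11 matched each other and belonged to Cep20, 25.1 kb away, and Nde1, 31.2 kb away. They lay 36 and 75 bp from the starts of those genes in the XX list.

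The shared peaks at Des, Cald1 and Srf stood apart from the start itself. Of the 7 genes with a listed start, 3 had a shared peak within 1 kb of it, against 22.8% of 17492 protein-coding genes with a listed start. Over all such genes, the centres of the 4161 shared peaks within 1 kb of a start lay a median of 175 bp from it (quartiles 95 and 331 bp). The XX centres at Cald1 (360 bp), Srf (538 bp) and Des (552 bp) were all beyond the upper quartile. Between 300 and 600 bp from the start lay 22.4% of those 4161 peaks (interval 21.1 to 23.6). This range was not planned beforehand and holds the XX centres of Cald1, Srf and Des. Of the 4161 peaks, 67.9% lay downstream of the start (66.5 to 69.3). Des and Cald1 were on the more common side and Srf was on the other. Within 500 bp of a start, only Cald1 of the 10 genes had a shared peak by its XX centre, and Cald1 and Srf did by their XY centres.

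**Figure D2:**
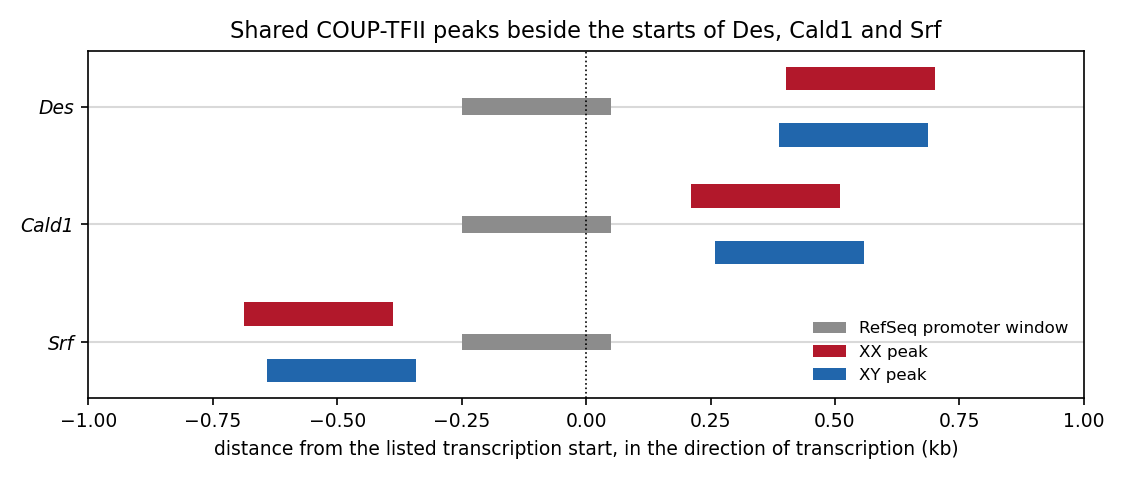
XX and XY peaks (300 bp wide) at Des, Cald1 and Srf, by distance from the listed transcription start in the direction of transcription (kb). Grey bars are the RefSeq promoter windows. Both lists place the peak downstream of the start at Des and Cald1 and upstream at Srf, in no case inside the window.

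**Figure D3:**
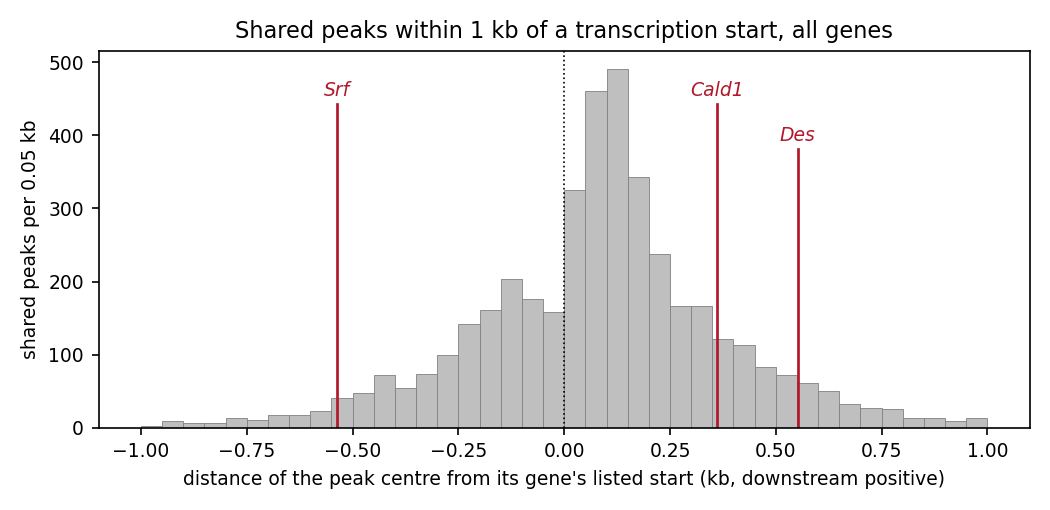
Distances of all 4161 shared peaks within 1 kb of a start of their gene (kb, downstream positive), counted in bins of 0.05 kb. Red lines mark the XX centres at Srf, Cald1 and Des, which lie 538, 360 and 552 bp from the start, on the flanks of the distribution.

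Base composition of the promoter windows varied among the 7 genes, and windows of genes with a shared peak at a start were richer in G and C over the whole table. Their median was 62.7% G and C with 23 CpG, against 54.3% and 8 CpG for windows of other protein-coding genes. Srf, with 63.3% and 25 CpG, and Des, with 65.3% and 11 CpG, were above the first of these medians in G and C, and the first Cald1 window, with 50.3% and 6 CpG, was below both. Among genes without a peak at the start, Acta2 had 54.7% and 6 CpG and Cnn1 had 59.3% and 6 CpG. The windows richest in G and C were those of Tpm2 (70.3%, 20 CpG) and Tpm1 (66.3%, 27 CpG), which had no peak within 1 kb of the start.

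In both lists the shared percentage of the 10 genes' peaks was near that of all peaks. In the XX list 4 of 6 were shared (66.7%, interval 22.3 to 95.7), against 67.0% of all XX peaks. In the XY list 4 of 5 were shared (80.0%, 28.4 to 99.5), against 76.0% of all XY peaks. Centres of the 4 shared pairs lay between 14 and 49 bp apart, against a median of 33 bp for all 7483 shared peaks. Of the XX peaks, 5 of 6 lay inside the gene (83.3%, 35.9 to 99.6), against 68.6% of all XX peaks given to a gene. In the XY list 4 of 5 did (80.0%, 28.4 to 99.5), against 72.0%. Within 1 kb of an end of the gene body lay 2 of 6 XX peaks (33.3%, 4.33 to 77.7) and 2 of 5 XY peaks (40.0%, 5.27 to 85.3), against 55.7% and 62.6% of all peaks given to a gene. All of these intervals hold the value of the whole list, but with 6 and 5 peaks they are too wide to show a likeness. If peaks were spread evenly over the genome near genes, the 10 genes would have 4.29 XX, 3.85 XY and 2.93 shared peaks from their territories. Cald1, with the longest territory (226 kb), would have 0.846 shared peaks, Myocd (202 kb) 0.754, Des 0.124 and Srf 0.0543. Of the genes without a shared peak, Tpm1 would have 0.504 and Myh11 0.382. Acta2, Cnn1, Tpm2 and Tagln would have 0.124 or less. Peaks are not spread evenly, since 55.7% of the XX peaks given to a gene lay within 1 kb of its ends. For single genes, every even-spread value for shared peaks was below 1, with 0.846 the largest. Any gene with 1 shared peak therefore exceeds its value, wherever the peak lies.

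Most peaks around the 10 genes belonged to other genes. This depends on the rule, since the windows reach 100 kb beyond both ends of each gene, while the territories of the 10 genes total 783 kb. The same count was not made for other protein-coding genes. Within 100 kb of a member, 29 XX peaks were nearer another gene, and 25 of them were shared, against 67.0% of all XX peaks. Of the 29, 24 lay within 1 kb of a listed start of some gene, as did 53.2% of all XX peaks on chromosomes with listed starts. The XY list likewise had 29 such peaks, with 25 shared, against 76.0% of all XY peaks. Of these 29, 25 lay within 1 kb of a start, against 60.0% of all XY peaks on those chromosomes. Beside the neighbours already named, they belonged to Dnph1 and Ptk7 near Srf, to Lactb and Rps27l near Tpm1, and to Tesk1, Ccdc107, Arhgef39, Gba2, Rgp1 and Tln1 near Tpm2. Around Tagln they belonged to Rnf214, Pafah1b2, Sik3 and Bace1, around Cnn1 to Prkcsh, Zfp653, Ecsit, Pigyl and Zfp872, and near Myocd an XX-only peak belonged to Arhgap44. Tln1, the gene of talin, which links integrins to actin, had an XY-only peak 407 bp from its start and 38.6 kb from Tpm2.

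Peaks were also counted at 4 related gene lists. Of 24 other smooth muscle genes, 10 had a shared peak (41.7%), against 28.2% of all protein-coding genes. These 24 genes had a median length of 28.8 kb, against 17.2 kb for all protein-coding genes, and no allowance was made for length. No peak in either list was found at 7 of the 24 (29.2%), against 57.8% of all protein-coding genes. Actn1, which encodes an alpha-actinin that cross-links actin, had 3 shared peaks among 5 XX and 3 XY peaks, 1 of them 559 bp downstream of its start in the XX list. Itga8, an integrin gene, had 3 shared peaks among 4 XX and 3 XY peaks, 1 of them 71 bp from the start. Of the 10 genes with a shared peak, 7 had one within 1 kb of a listed start. Smtn and Lmod1, named after their values were seen, each had 1 shared peak farther away: the XX peak lay 3.61 kb downstream of it at Smtn (smoothelin) and 43.7 kb downstream, 0.437 kb past the end of the gene, at Lmod1 (leiomodin). Actg2, the gene of smooth muscle gamma-actin, Mylk, that of myosin light chain kinase, Myl9, that of a myosin light chain, and Kcnmb1, that of a potassium channel subunit, had none in either list and were also named after their values were seen.

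Of 20 genes for regulators of the SRF and myocardin programme, 13 had a shared peak (65.0%), against 28.2% of all protein-coding genes. This was the largest share of the 4 lists. The median of the 20 genes was 1 shared peak a gene, against 0 over all protein-coding genes. The list's genes had a median length of 32.5 kb, against 17.2 kb for all protein-coding genes and 13.3 kb for the 10 members. Tead1, whose product binds MCAT elements, had 2 shared peaks among 3 XX and 3 XY peaks. The SRF partners Elk1, Elk3 and Elk4 and the myocardin-related coactivators Mrtfa and Mrtfb, all named after their values were seen, had 1 shared peak each. The XX peak shared at Mrtfa lay 415 bp upstream of the start, and that at Mrtfb lay 19.7 kb outside the gene. Mrtfb also had 2 XY-only peaks, 1 of them 115 bp upstream of a listed start and 1 at 20.5 kb outside the gene. Mrtfa also had an XX-only peak inside the gene, 42.6 kb downstream of a listed start.

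Shared peaks were found at 4 of 13 cytoplasmic actin and myosin genes (30.8%), near the 28.2% of all protein-coding genes. These 4 were Actn4, Myh10, Myl12b and Pfn1, with 1 each. Actb and Actg1, the cytoplasmic actin genes, named after their values were seen, had none. Of 24 genes of the striated muscle sarcomere, 2 had a shared peak (8.33%, against the same 28.2%), Mybpc1 and Myl3. A shared peak within 1 kb of a listed start was found at 7 of 20 other smooth muscle genes, 7 of 15 regulators, 2 of 11 cytoplasmic genes and none of 20 sarcomere genes, beside 22.8% of all protein-coding genes with a listed start. The lists were chosen with earlier results known and were not tested against each other or against the members.

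**Figure D4:**
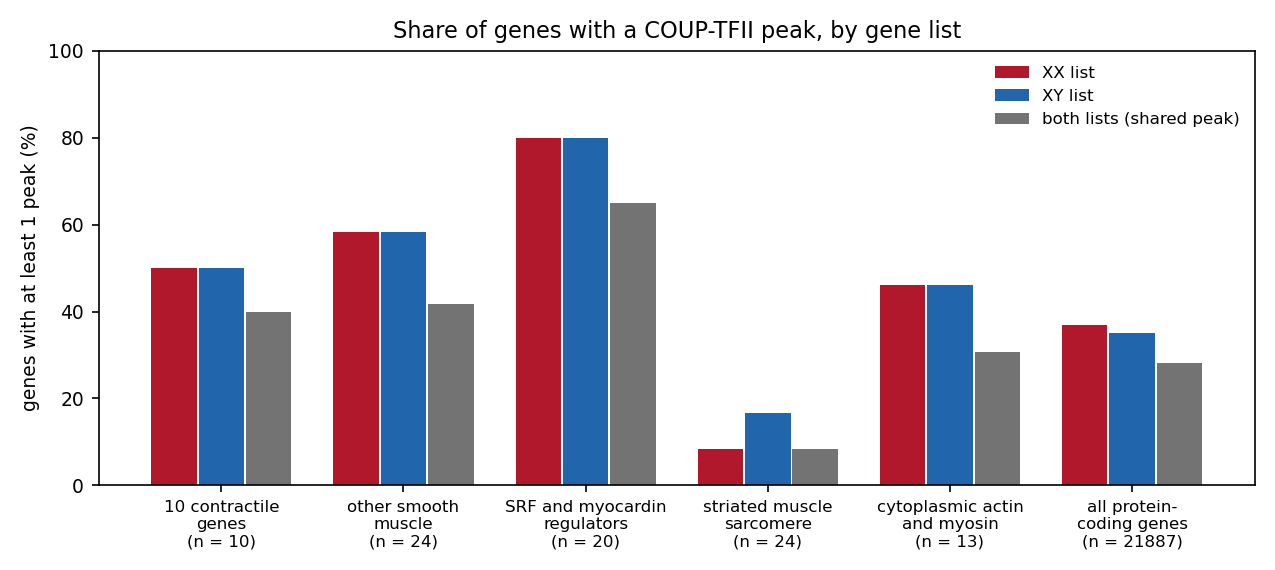
Percentage of genes with at least 1 peak in the XX list, in the XY list and in both (a shared peak), for the 10 contractile genes, the 4 related lists and all protein-coding genes. The regulators reach 65.0% with a shared peak, the 10 genes 40.0% and all genes 28.2%, while the sarcomere genes are at 8.33%.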

How the data were processed

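The deposited files used are the authors' 2 peak lists, 1 for XX and 1 for XY, with 3 columns (chromosome, start and end) and no other measurement; the labels of each replicate name the list of its sex. Per the submitters' processing notes, the build is mm10 and the tools include HOMER 4.10.3, Bowtie 1.2 and bedtools 2.24.0, without roles. How peaks were thresholded and replicates combined is not given in the sources used here, and the depth per sample is unknown. Part of the labels' protocol names another factor and tissue; titles, antibody and design text were followed.

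Peaks (coordinates counted from 1) were given by their centre to the nearest of 21887 protein-coding genes of the RefSeq table for GRCm38.p6, within 100 kb (distance 0 within a gene body; of equally near genes, the one whose end is closer). Shared peaks carry XX coordinates. Starts and strand came from the RefSeq promoter table. Territories were sampled every 500 bp. Python 3.11.15 and scipy 1.17.1 were used, and overlaps and distances were checked with bedtools 2.31.1. All 200 simulated peaks were given to the right gene. They were placed only at genes without a close protein-coding neighbour, so crowded genes were not covered by that simulation. No test was made. All members are named; of the 4 lists, genes with 2 or more shared peaks, or, where none had, with 1 (up to 5); and genes given a peak within 100 kb of a member. Other genes are named as said in the text. The printed promoters are those of members with a peak within 1 kb of a gene end and of 2 without any peak; Srf was added for its peak near the listed start. Members and lists were chosen with earlier results of these data known.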

Additional observations from a re-analysis of the deposited data

How the results depend on the processing

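Of 38 recalculated values for the 10 genes as a group, 34 stayed within 1.5 times the reported count or inside the reported interval. Some of the 34 could not have changed: all 10 genes are autosomal, and dropping the sex chromosomes removes none of their peaks. The percentages of member peaks were judged against wide intervals, such as 22.3 to 95.7 for shared XX peaks. The tally of 34 therefore says little about how stable the results are. When every peak within 100 kb counted for a gene, even where another gene was nearer, the 10 genes had 35 XX, 34 XY and 29 shared peaks. With 500 bp around the start in place of 1 kb, 1 member had a shared peak there in place of 3, by XX centres. Calling peaks shared by a common 50% of both, or by a gap of at most 100 bp or 1 kb between centres, left the shared percentages of member peaks at 66.7% and 80.0%. Over all peaks, these rules gave 62.9%, 57.5% and 71.5% in the XX list, in place of 67.0%. In the XY list they gave 71.4%, 65.3% and 80.9%, in place of 76.0%. The shared peak of Myocd was lost within 10 kb and with noncoding genes counted (0 each). With 1 mismatch allowed, 4 member promoter windows held a CArG box in place of 1. No paired analysis was possible because each sex has 1 peak list over both replicates, and for the same reason no replicate could be left out. A stricter peak threshold could not be tried without scores.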
